A study of Homo sapiens with 12 samples.

Results

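The region described is a block of the short arm of chromosome 1, from 54 to 72 Mb in GRCh38, in which peaks of 5 chromatin-associated proteins lay close together in HEK293T cells. All peaks starting at or after position 54000000 and before position 72000000 were taken from each of 10 peak lists, which gave 45628 of 1493051 analysed peaks. The reference was the adjoining 20 Mb on either side, which held 13464 peaks on the upstream side (34 to 54 Mb) and 23674 on the downstream side (72 to 92 Mb). The block was picked because the median of the 10 lists was high there, so the peak counts that follow describe it and carry no test. HEK293T is a human embryonic kidney line that carries the SV40 large T antigen. All libraries were made from wild-type cells of this line, with no treatment given in the labels, by chromatin immunoprecipitation and sequencing (ChIP-seq), with 2 libraries for each of INTS13, INTS11, HDGF, ZEB1 and ZNF609, and 2 input libraries that were not analysed here. The study asked whether INTS13 and its interacting factors are found at the same loci. Since the labels do not say that replicates came from separate cultures, p-values measure only the spread between these libraries, which may be technical.

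Integrator is a multi-subunit complex that travels with RNA polymerase II and cleaves nascent RNA, both at small nuclear RNA genes and near the starts of many coding genes. INTS11 is its endonuclease, and INTS13 belongs to a module with INTS10 and INTS14 that has been linked to DNA-binding factors. HDGF has a PWWP domain, a nucleosome-binding fold. ZEB1 has zinc fingers that recognise E-box sequences such as CACCTG and represses epithelial genes. In mouse neural progenitors the zinc finger protein ZNF609 has been linked to Integrator and the cohesin loader. The block holds 81 protein-coding genes. Among them are the stress genes JUN and GADD45A, the signalling genes JAK1 and LEPR, and the developmental transcription factors NFIA and FOXD3.

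The promoters of 4 genes of the block are printed here because the peak lists treat them differently. Each is the 250 bases before the RefSeq start site (GRCh38.p14), 5′ to 3′ on the gene's strand, with capitals for an E-box (CACCTG or CAGGTG) or a GC box (GGGCGG or CCGCCC). SERBP1 (chr1:67430403-67430652, minus strand) lay under regions of INTS13, INTS11 and HDGF, and its gene had the top-ranked gene-end peaks of HDGF and of ZEB1. JUN (chr1:58784048-58784297, minus strand) also lay under regions of INTS13, INTS11 and HDGF. FOXD3 (chr1:63322317-63322566, plus strand) lay under regions of INTS13, INTS11 and ZEB1. RPE65 (chr1:68449955-68450204, minus strand) is a retinal gene whose promoter lay under regions of INTS13 and INTS11 only.
SERBP1: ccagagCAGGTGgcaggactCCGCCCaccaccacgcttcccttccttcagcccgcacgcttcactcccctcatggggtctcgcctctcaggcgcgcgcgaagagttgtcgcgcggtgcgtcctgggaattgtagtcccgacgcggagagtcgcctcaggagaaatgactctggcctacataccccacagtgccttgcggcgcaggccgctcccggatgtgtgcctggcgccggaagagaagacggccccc
JUN: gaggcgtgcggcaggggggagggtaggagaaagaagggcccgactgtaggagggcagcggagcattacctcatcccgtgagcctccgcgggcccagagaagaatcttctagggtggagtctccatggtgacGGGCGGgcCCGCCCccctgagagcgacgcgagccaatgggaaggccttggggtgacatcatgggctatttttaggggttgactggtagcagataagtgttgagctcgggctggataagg
FOXD3: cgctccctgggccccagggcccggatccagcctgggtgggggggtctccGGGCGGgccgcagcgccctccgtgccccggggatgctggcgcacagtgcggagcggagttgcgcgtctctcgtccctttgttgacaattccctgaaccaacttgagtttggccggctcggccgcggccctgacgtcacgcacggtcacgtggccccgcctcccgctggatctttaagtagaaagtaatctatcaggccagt
RPE65: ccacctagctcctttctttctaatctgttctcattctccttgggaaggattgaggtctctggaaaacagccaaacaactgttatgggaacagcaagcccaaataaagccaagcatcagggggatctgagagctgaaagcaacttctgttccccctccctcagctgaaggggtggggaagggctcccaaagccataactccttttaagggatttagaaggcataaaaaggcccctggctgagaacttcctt
The SERBP1 and FOXD3 promoters held 24 CpG dinucleotides each and the JUN promoter 14, while the RPE65 promoter held 0. GC content was 66.8% at SERBP1, 62% at JUN, 67.6% at FOXD3 and 48.8% at RPE65. Of the 4, SERBP1 was the one with an E-box, and RPE65 was the one without a GC box. The FOXD3 promoter, which lay under a ZEB1 region, held no E-box of these letters.

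Peaks of every protein were denser in the block than in its flanks, but by factors that depended on how many peaks of each list were used. INTS13 had 6627 and 5595 peaks in the block in replicates 1 and 2, or 368 and 311 per Mb, against 242 and 209 per Mb over both flanks. INTS11 had 6415 and 6551 block peaks, or 356 and 364 per Mb, against 136 and 83.1 per Mb in the flanks. HDGF had 4583 and 3643 block peaks, or 255 and 202 per Mb, against 86.2 and 63.8 per Mb in the flanks. In each of these lists the block was denser than the flanks, and the INTS11 replicates differed in the flanks rather than in the block. ZEB1 had 3445 and 3319 block peaks, or 191 and 184 per Mb, against 30.4 and 30.9 per Mb in the flanks. ZNF609 had 3598 and 1852 block peaks, or 199.9 and 103 per Mb, against 32.7 and 15.3 per Mb in the flanks. The shorter ZNF609 list had fewer peaks on each side of the comparison.

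The ratio of block to flank density averaged 6.42 ± 0.440 for ZNF609 and 6.13 ± 0.236 for ZEB1, then 3.50 ± 1.24 for INTS11, 3.06 ± 0.155 for HDGF and 1.51 ± 0.0232 for INTS13 (SD, n = 2 each). With all peaks, the ZEB1 and ZNF609 lists lay above all other lists, and the INTS13 lists below. List length moved with the ratio: the INTS13 lists held 416964 and 341913 analysed peaks, while ZEB1 held 52336 and 45291 and ZNF609 held 46187 and 26409. With the 10000 peaks of highest -log10 p of each list, INTS13 had a mean ratio of 9.57, INTS11 of 10.5, HDGF of 6.09, ZEB1 of 11 and ZNF609 of 9.13. The order of the proteins with all peaks thus did not hold for lists of equal length. INTS13 and ZNF609 then differed by less than the SD of either, and HDGF had the lowest mean.

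**Figure D1:**
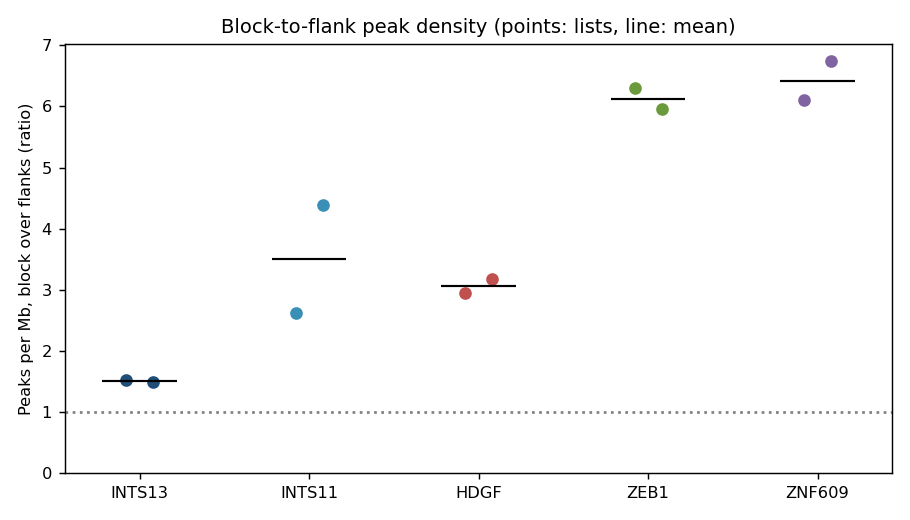
Ratio of peaks per Mb in the block to peaks per Mb in the adjoining 20 Mb on either side (vertical axis, linear), for each protein. Points are the 2 lists and lines their mean; all 10 lists lie above 1, with INTS13 near 1.51 and ZEB1 and ZNF609 above 5.9.

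For the proteins other than INTS13 the contrast was larger with the upstream flank. ZEB1 had 5.75 and 4.15 peaks per Mb upstream, and ZNF609 had 3.75 and 1.30, so that the block was 38.9 ± 7.88 and 66.2 ± 18.3 times as dense as its upstream flank for these proteins (SD, n = 2 each). Against the downstream flank the ratios were 3.34 ± 0.199 for ZEB1 and 3.38 ± 0.195 for ZNF609. INTS11 stood at 13.4 ± 11.8 times its upstream density, where its replicates were far apart, with ratios of 5.09 and 21.8. INTS13, with 245 and 201 peaks per Mb upstream against 239 and 216 downstream, had flanks of like density.

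The block was not evenly filled, and its 2 ends differed. A 1-Mb bin was called dense where the median of the 10 lists was above 2 times the mean bin of the list, and 18 of 18 block bins were dense, against 0 of 20 upstream, 11 of 20 downstream and 12.6% of 3038 bins in all; the block was chosen on this measure, so nothing is read from that count. At the upstream end the bin from 54 to 55 Mb held 353 and 274 ZEB1 peaks, against 7 and 5 in the bin from 53 to 54 Mb. ZNF609 had 247 and 132 peaks in the inner bin, against 0 and 1 in the outer bin. HDGF had 447 and 369 in the inner bin, against 78 and 56 in the outer bin. The step was therefore present in all 6 of these lists.

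In 6 of the 10 lists the step lay about 70 kb inside the chosen edge. The first 70 kb of the block held between 0 and 3 peaks in INTS11 replicate 2, HDGF replicate 2 and the ZEB1 and ZNF609 lists, while the next 30 kb held between 5 and 16 in these 6 lists. In the other 4 lists peaks were already present in the first 70 kb: INTS13 had 22 and 11 there in replicates 1 and 2, and 8 and 11 in the next 30 kb, INTS11 replicate 1 had 10 in each stretch, and HDGF replicate 1 had 11 in the first and 14 in the next. LDLRAD1 (chr1:54007298-54018186) and TMEM59 (chr1:54026681-54053573), the genes nearest to the edge, had a reproducible region of INTS13 alone at their ends. INTS13 had fewer peaks in the inner bin than outside, 234 and 143 against 322 and 277, but they were wide: beyond its first 100 kb the inner bin was covered by INTS13 peaks to 86.7% and 91.3%, against 28.5% and 22.1% of the outer bin. The INTS13 count and cover thus moved in opposite directions across this edge.

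The downstream end had no such step. The bin from 71 to 72 Mb held 151 and 172 INTS13 peaks, against 90 and 88 in the bin from 72 to 73 Mb, and ZEB1 had 35 and 51 there against 29 and 23. HDGF had 16 and 15 peaks in the last block bin and 0 in each list between 72 and 74 Mb. Peaks were again frequent between 77 and 78 Mb, where INTS13 had 418 and 357, HDGF 309 and 273, ZEB1 235 and 213, and ZNF609 242 and 143. The peaks nearest to the limits of the block, given for all 10 lists, did not stand apart in fold: at 54 Mb those inside had folds of 1.86 to 3.48 and those outside 1.79 to 3.25, and at 72 Mb those inside had 1.88 to 3.55 and those outside 1.63 to 3.75.

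**Figure D2:**
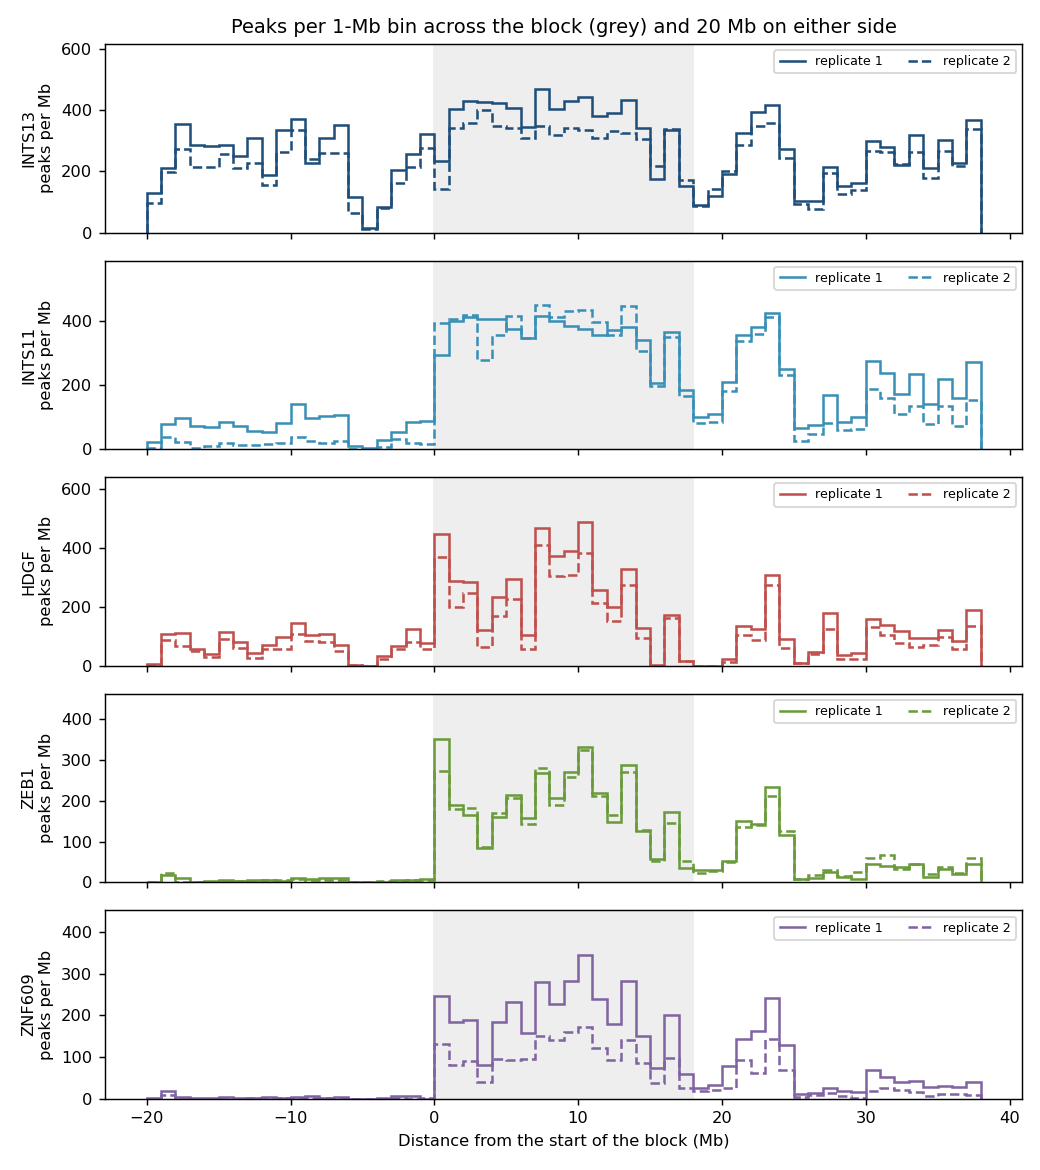
Peaks per 1-Mb bin (vertical axes) against distance from the start of the block (Mb), with the block in grey and 20 Mb shown on either side; solid and dashed lines are replicates 1 and 2. ZEB1 and ZNF609 stay below 25 peaks per Mb upstream of the block, step up at its start and are high again 23 Mb from the start, while INTS13 is high on both sides.

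Peaks of the block were wide for INTS13 and INTS11, and a large part of the sequence lay under them. INTS13 peaks covered 45.6 ± 4.88% of the block, against 16.7 ± 1.77% upstream and 18.9 ± 1.89% downstream, and INTS11 peaks covered 40.7 ± 7.01%, against 2.35 ± 2.17% and 12.9 ± 3.74% (SD, n = 2 each). HDGF covered 15.3 ± 3.90% of the block, ZEB1 12.5 ± 0.628% and ZNF609 9.65 ± 5.71%, with a mean of at most 4.68% in either flank. Peaks of 10 kb or more numbered 23 and 52 in the INTS13 lists and 15 and 0 in the INTS11 lists. The widest INTS13 peaks of the block spanned 29.1 and 75.7 kb.

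Peak height was moderate. The fold of a peak is the authors' ratio of its summit to the background of its library, and in the block the highest was 6.50 for HDGF, 5.28 for INTS13, 4.33 for ZEB1, 4.27 for INTS11 and 4.22 for ZNF609, below the highest fold of each list, which lay between 10.4 and 16.4. Within its own list, the median block peak of INTS13 stood at percentile 73.5 and 79.4 and that of INTS11 at 73.2 and 61.9. HDGF stood at 57.4 and 62.2, ZEB1 at 57.1 and 49.7, and ZNF609 at 46.8 and 36.2. The median peak of the upstream flank ranked lower than that of the block in each of the 10 lists, at percentiles of 20.0 to 45.2. In the downstream flank the ZNF609 medians, 46.8 and 36.2, were at the block's level. Many peaks of a list shared the same fold, so equal medians can be the same tied value. Replicates differed by 8.02 percentile points on average, against 15.9 for libraries paired in all ways, an excess of 7.84 (exact one-sided permutation test over 945 pairings of the 10 libraries, p = 0.00529, Benjamini-Hochberg adjusted over 3 tests 0.00794; smallest possible p 0.00106). Among peaks with a -log10 q of 5 or more the excess was 0.630 and the exact permutation p was 0.0646. List length moved with the rank: the INTS13 lists, the longest, stood highest, and ZNF609 replicate 2, the shortest list, stood lowest. The part of list length in the difference was not tested.

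A reproducible region is a merged stretch that holds a peak of each of a protein's 2 lists. The block held 4204 such INTS13 regions, 3834 of INTS11, 1881 of HDGF, 1128 of ZEB1 and 623 of ZNF609, against 2238, 72, 307, 11 and 4 in the upstream flank and 2844, 1537, 541, 199 and 107 in the downstream flank. Regions of INTS13 covered 50.9% of the block and those of INTS11 46.8%, while HDGF regions covered 14.5%, ZEB1 regions 7.73% and ZNF609 regions 3.80%. Of the INTS11 regions 85.7% overlapped an INTS13 region, and of the INTS13 regions 75.6% overlapped an INTS11 region. INTS13 was found at 86.0% of HDGF, 92.4% of ZEB1 and 84.6% of ZNF609 regions, beside the 50.9% of the sequence that INTS13 regions covered. ZEB1 regions were at 25.4% of ZNF609 regions, beside their cover of 7.73%, and ZNF609 regions at 14.4% of ZEB1 regions, beside their cover of 3.80%. An overlap needed only 1 bp, and regions had median widths of 974 bp (ZNF609) to 1554.5 bp (INTS11). Regions placed at random would thus overlap more often than the cover, so the gap between share and cover does not measure association.

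Merging all regions of the 5 proteins gave 3933 stretches in the block. The most frequent make-up was INTS13 with INTS11, at 1115 stretches, followed by INTS13 alone at 826 and INTS11 alone at 413. All 5 proteins met at 174 stretches, or 4.42%, against 1 of 2384 upstream and 15 of 3237 downstream. These stretches were also the widest, with a median of 11190 bp, against 864 bp for the 1462 stretches of 1 protein, so that width and number of proteins went together. HDGF alone marked 147 stretches.

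Agreement between replicates in the block depended on the protein. Of the 500 block peaks with the highest -log10 p, 99.8% and 98.6% overlapped a peak of the other replicate for INTS13, where the other list covered 49.1% and 42.2% of the block. The HDGF shares were 80.6% and 87.4%, with the other list covering 12.6% and 18.1%. Those of ZEB1 were 44.2% and 45.2%, with 12% and 12.9% covered, and those of ZNF609 21.0% and 38.4%, with 5.62% and 13.7% covered. Since 1 bp of overlap sufficed, peaks placed at random would also give shares above the cover. The Jaccard index of the top 500 peaks, the bases shared over the bases in either list, was 0.375 between INTS13 replicates, 0.196 between HDGF, 0.153 between INTS11, 0.0318 between ZEB1 and 0.0186 between ZNF609 replicates. INTS13 and INTS11 libraries had a mean index of 0.217, above that of the INTS11 replicates, while INTS13 and ZEB1 libraries had 0.0664, above that of the ZEB1 replicates. The means of ZEB1 with INTS11 (0.0623) and HDGF (0.0497) also exceeded the ZEB1 replicates, while that with ZNF609 (0.0251) did not. ZNF609 replicates lay below the mean of ZNF609 with each other protein, which ranged from 0.0251 (ZEB1) to 0.0363 (INTS13). Over all libraries the index was 0.155 within proteins and 0.0694 between them, a difference of 0.0855 (exact one-sided permutation test over 945 pairings, p = 0.00212, adjusted 0.00635). This pooled difference did not hold for each protein. Replicates of INTS13 and HDGF were above every mean of their protein with another, and those of INTS11, ZEB1 and ZNF609 were not. Peak width moved with the index: the top INTS13 peaks had median widths of 2540 and 3234 bp, and those of ZEB1 758 and 707 bp. The part of width in the difference was not tested.

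HDGF had no peaks in long stretches near the downstream end where the other proteins were still found. No peak of either HDGF list lay in 4 stretches of the block of over 100 kb, which summed to 2.97 Mb and were picked after the data were seen. The first, chr1:68504969-69077038, overlapped no protein-coding gene. The second, chr1:69077316-70033281, overlapped LRRC7, which encodes a synaptic scaffold protein. The third, chr1:70531270-71053820, overlapped PTGER3, a prostaglandin E receptor gene, and the last began at chr1:71083324 and ran through NEGR1, a neuronal adhesion gene, to position 74196487, well past the block. In these stretches INTS13 had 198 and 228 peaks per Mb, against 402 and 327 in the rest of the block. INTS11 had 236 and 211 per Mb, against 380 and 394. ZEB1 had 66.4 and 60.3 per Mb, against 216 and 209, and ZNF609 had 87.6 and 42.5, against 222 and 115. All other lists were thus thinner there, to between 0.289 and 0.697 of their density in the rest of the block, while HDGF was at 0 by the choice of the stretches.

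The first and second stretches were separated only by 1 peak of HDGF replicate 1, where replicate 2 had none. In the other intervals between the stretches HDGF peaks formed islands at genes. From 70033282 to 70531269, over the end of LRRC7, LRRC40, the splicing factor gene SRSF11, ANKRD13C and CTH, an enzyme gene of cysteine synthesis, HDGF had 173 and 162 peaks. INTS13 had 186 and 179 peaks there, INTS11 193 and 189, ZEB1 102 and 101 and ZNF609 119 and 63. At ZRANB2, a gene of a splicing-related zinc finger protein, HDGF had 16 and 15 peaks within 29.5 kb, where INTS13 had 5 and 3, INTS11 4 and 9, ZEB1 1 and 3 and ZNF609 2 and 0. It was the one HDGF island in the last Mb. The limits of both islands are the ends of the stretches without HDGF peaks. That choice favours HDGF, so its higher count at ZRANB2 is not read as a result. Of the 180 bins of 100 kb in the block, 28 and 31 held no HDGF peak, and 0 held no peak of any other list.

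**Figure D3:**
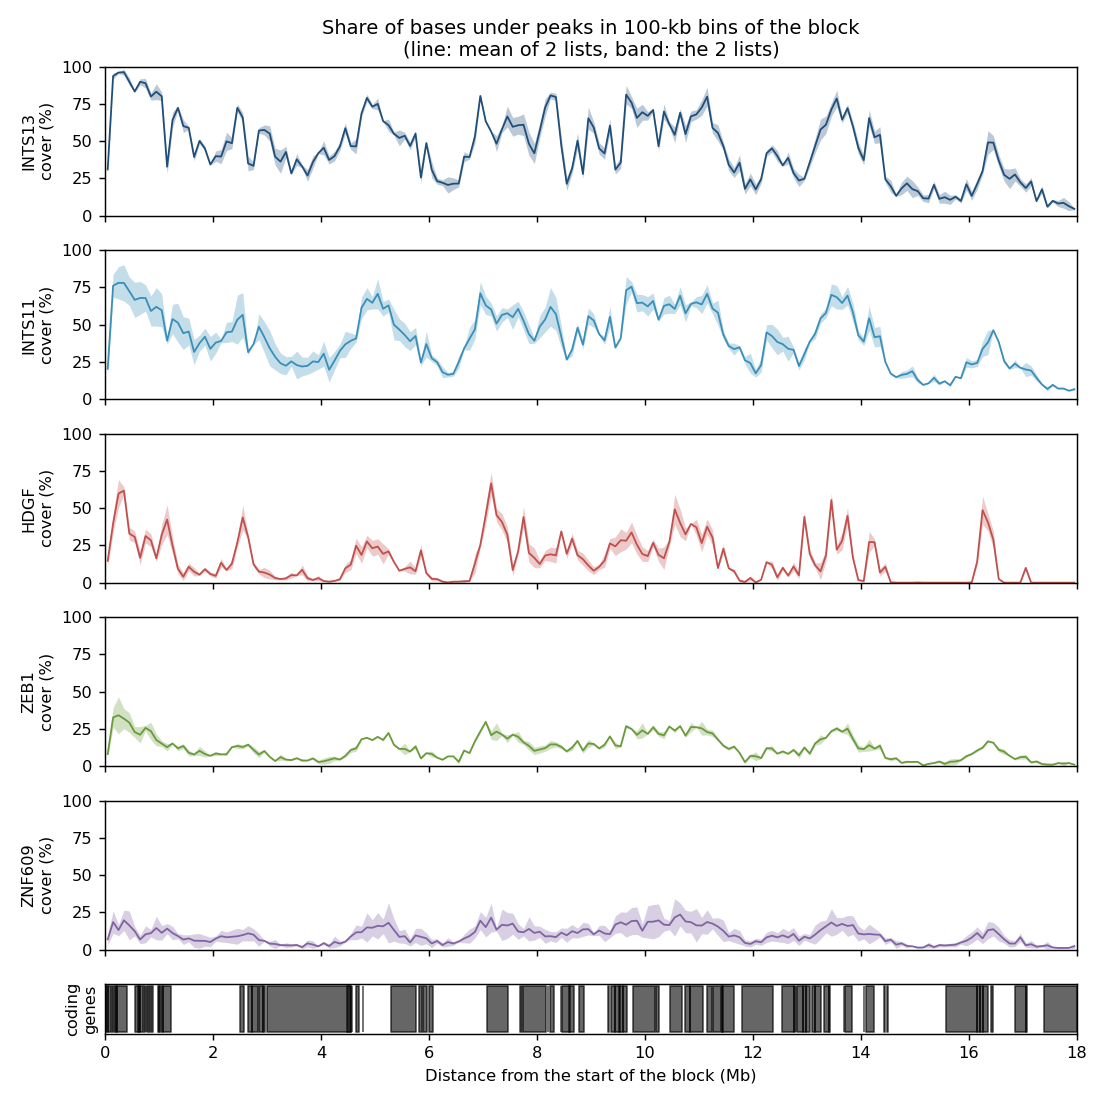
Share of bases under peaks in each 100-kb bin of the block (vertical axes, percent, 0 to 100) against distance from the block start (Mb); lines are the mean of 2 lists, bands span the 2 lists, and the bottom track marks protein-coding genes. HDGF falls to 0 over long stretches beyond 14 Mb and returns over the gene group near 16 Mb, while the other proteins keep some cover in every bin.

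HDGF peaks were sparse far from coding genes, both over the whole block and outside the stretches without HDGF. Protein-coding gene bodies make up 54.7% of the block, sequence within 100 kb of one 24.5%, and sequence farther away 20.8%. HDGF had 139 and 91.7 peaks per Mb in the farthest class, against 288 and 243 per Mb in gene bodies, a ratio of 0.482 and 0.377. INTS13 had 342 and 317 per Mb far from genes, against 370 and 312 per Mb in gene bodies, a ratio of 0.923 and 1.02. The ratio was 0.945 ± 0.00660 for INTS11, 0.784 in each list for ZEB1 and 0.819 ± 0.00587 for ZNF609 (SD, n = 2). HDGF was therefore the lowest of the 5 proteins in both lists. The stretches without HDGF peaks hold 32.0% of the sequence far from genes, so the low HDGF value is in part the same observation. The log2 ratio differed by 0.104 within proteins and by 0.484 between libraries paired in all ways (exact one-sided permutation test over 945 pairings, p = 0.00317, adjusted over 2 tests 0.00635). Outside the 4 stretches the ratio was 0.618 and 0.484 for HDGF, against 0.883 to 1.05 in the other 8 lists, and the same exact permutation test gave p = 0.00529. This test and the next, of cover at start sites, were added after the data were seen and adjusted together.

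Cover around start sites differed between INTS13 and HDGF, while some other proteins overlapped. The genes used were the 63 protein-coding genes of the block with a RefSeq start site exactly at an outer end of the gene. INTS13 peaks covered 92.4% and 83.7% of the bases within 500 bp of these starts, against 51.4% and 56.6% from 1 to 5 kb inside the genes. INTS11 covered 79.5% and 48.5% at the starts, against 52.4% and 40.5% inside, so its second library showed little of a summit. HDGF had less cover at the starts than inside, with 25.6% and 21.4% at the starts, against 46.5% and 37.7% inside; from 5 to 1 kb before the starts it covered 29.0% and 18.9%. ZEB1 was nearly flat, with 21.6% and 16.2% at the starts against 18.2% and 14.0% inside, and ZNF609 had 11.4% and 2.90% at the starts against 15.5% and 5.79% inside. As ratios of start to inside cover, INTS13 had 1.80 and 1.48, INTS11 1.52 and 1.2, ZEB1 1.18 and 1.15, ZNF609 0.735 and 0.501, and HDGF 0.550 and 0.569. The values of INTS13 overlapped those of INTS11, and those of ZNF609 lay on both sides of HDGF. The log2 ratio of start to inside cover differed by 0.252 within proteins and by 0.798 between libraries paired in all ways (exact one-sided permutation test over 945 pairings, p = 0.0201, adjusted over 2 tests 0.0201). The HDGF shape was also seen in the flanks: inside cover over cover before the start was 1.80 ± 0.278 in the block, against 1.59 ± 0.194 upstream and 1.57 ± 0.0187 downstream (SD, n = 2).

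**Figure D4:**
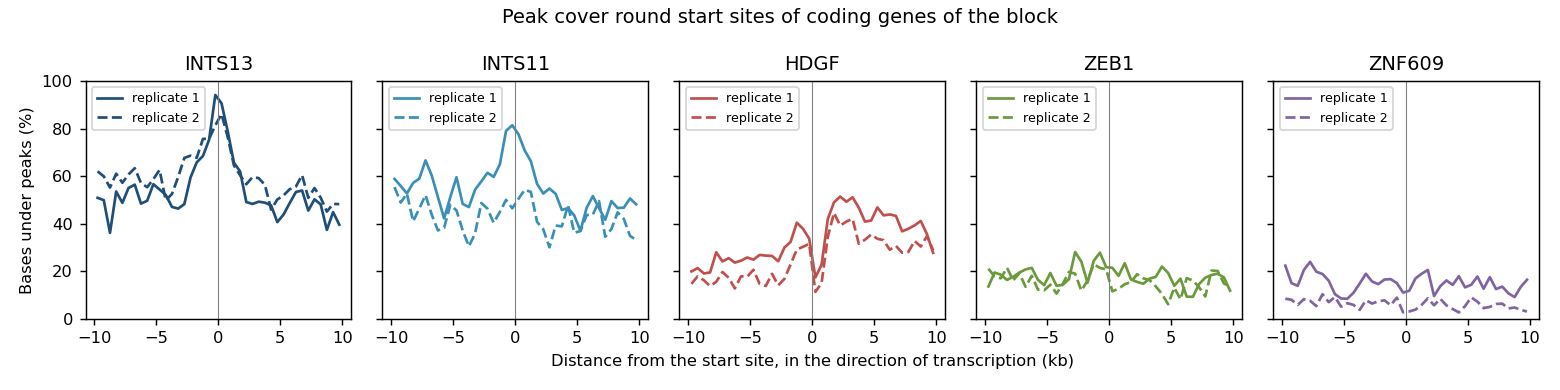
Share of bases under peaks (vertical axis, percent) by distance from the start site in the direction of transcription (kb, negative values lie before the gene), over 63 protein-coding genes of the block; solid and dashed lines are replicates 1 and 2. INTS13 and the first INTS11 library peak at the start, HDGF dips just after it and is highest 1 to 5 kb inside the genes, and ZEB1 and ZNF609 have no summit there.

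At the ends of coding genes, the proteins formed a graded series. A gene was counted where a reproducible region came within 1 kb of either end, and this held with INTS13 for 81 of 81 block genes (63.7% of all 19974 protein-coding genes), with INTS11 for 75 (17.4%), with HDGF for 64 (22.2%), with ZEB1 for 46 (3.78%) and with ZNF609 for 21 (1.57%). With peaks of -log10 q of 5 or more the counts were lower, at 67 genes with INTS13 (18.1% of all coding genes), 27 with INTS11 (2.83%), 15 with HDGF (2.66%) and 0 with ZEB1 (0.225%) or ZNF609 (0.0701%). In the upstream flank, with 240 genes, the counts were 211, 15, 52, 2 and 0, and in the downstream flank, with 82 genes, they were 76, 42, 35, 9 and 2. The INTS13 shares were thus 100% in the block, 87.9% upstream and 92.7% downstream, while the ZEB1 shares were 56.8%, 0.833% and 11%. These counts are not independent of how the block was chosen, and the cover given above moved with them. Counting instead genes with a peak of each list in the window gave 81, 77, 66, 53 and 30 block genes for the 5 proteins in the same order, against 65.9%, 20%, 26.6%, 4.94% and 2.18% of all coding genes.

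**Figure D5:**
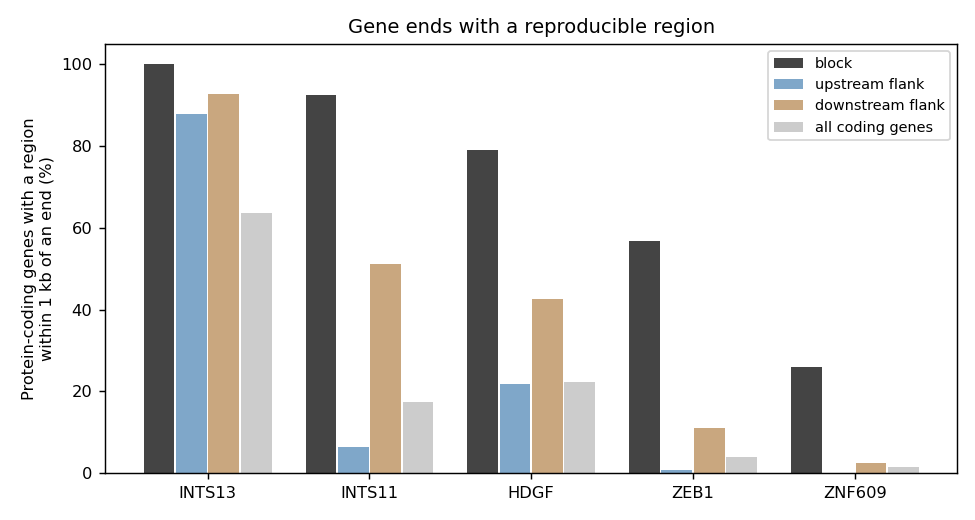
Share of protein-coding genes with a reproducible region within 1 kb of an end (vertical axis, percent), in the block (81 genes), the upstream flank (240), the downstream flank (82) and all coding genes (19974). The block bar is the highest for each protein, and the gap to the upstream flank is smallest for INTS13.

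All 5 proteins met at the ends of 15 genes, among them SERBP1, an mRNA-binding protein gene, SSBP3, CYB5RL, MRPL37, a mitochondrial ribosomal protein gene, and the transcription factor gene NFIA. A further 27 genes had all but ZNF609, including JUN, GADD45A, FOXD3, JAK1 and LEPR. INTS13 and INTS11 alone marked 9 genes, among them RPE65, IL23R and C8B. INTS13 alone marked LDLRAD1, TMEM59, PRKAA2 and NEGR1. Among the 64 genes with HDGF, INTS11 was at 62, ZEB1 at 43 and ZNF609 at 19, and among the 17 genes without HDGF, INTS11 was at 13, ZEB1 at 3 and ZNF609 at 2. Shares of these combinations over all coding genes or the flank genes were not computed. The counts therefore describe the block, and whether the proteins met beyond its dense cover was not tested.

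Counts in the gene groups that follow are to be read against the shares of all 81 block genes with a region at an end, with INTS13 at 100%, INTS11 at 92.6%, HDGF at 79%, ZEB1 at 56.8% and ZNF609 at 25.9% of them. The groups are too small for a share near these to set a group apart.

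The stress genes JUN, the AP-1 transcription factor, and GADD45A, a growth arrest gene, had regions of 4 proteins each and of ZNF609 at neither. The highest gene-end peak at JUN had INTS13 folds of 3.98 and 3.20, INTS11 folds of 4.27 and 2.24, HDGF folds of 4.14 and 3.95 and ZEB1 folds of 2.96 and 2.80. ZNF609 had a fold of 2.58 at JUN in replicate 1 and no peak in replicate 2. The fold of 4.27 was the highest of all INTS11 peaks of the block, and the other INTS11 library placed JUN at percentile 52.3 of its list by -log10 p. GADD45A had INTS13 folds of 4.50 and 3.66, INTS11 folds of 3.17 and 2.60, HDGF folds of 4.73 and 4.88 and ZEB1 folds of 2.74 and 2.80.

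Among genes of lipid metabolism, PLPP3, a lipid phosphatase gene, and ACOT11, a thioesterase gene, had regions of INTS13, INTS11 and HDGF. PLPP3 had HDGF folds of 4.34 and 4.65 and ACOT11 of 4.34 and 3.72. PRKAA2, a catalytic subunit gene of AMP-activated kinase, had HDGF folds of 2.76 and 3.95, from peaks that did not fall in 1 shared region, and INTS13 alone had a reproducible region there.

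Of 5 receptor and cytokine signalling genes, INTS13 and INTS11 were at 5, HDGF at 4, ZEB1 at 3 and ZNF609 at 1, close to the block shares of 100%, 92.6%, 79%, 56.8% and 25.9%. JAK1, a cytokine receptor kinase, had HDGF folds of 3.16 and 4.18 and ZEB1 folds of 3.29 and 2.80. LEPR, the leptin receptor, and ROR1, an orphan receptor kinase, likewise had ZEB1 regions, at LEPR with a peak in the window in replicate 1 only. IL12RB2, a chain of the interleukin-12 receptor, had ZNF609 folds of 2.46 and 2.42. Its neighbour IL23R, a chain of the interleukin-23 receptor, had shared regions of INTS13 and INTS11 only, although HDGF, ZEB1 and ZNF609 each had a gene-end peak in both lists. ROR1 had a ZNF609 fold of 4.22 in replicate 1, the highest of that list's block peaks, with none in replicate 2.

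The developmental factors NFIA and FOXD3 had regions of INTS13, INTS11, HDGF and ZEB1, and NFIA of ZNF609 as well. FOXD3, a neural crest and pluripotency factor, had the second-ranked ZEB1 gene end of the block, with folds of 3.40 and 3.31. The 6 genes of another chosen list were USP1, USP24, MYSM1, ATG4C, ITGB3BP and DEPDC1. All had INTS13, INTS11 and HDGF regions, beside block shares of 100%, 92.6% and 79%. USP1, USP24 and MYSM1, which encode deubiquitinases, had ZEB1 regions too. ZEB1 had no peak in replicate 2 at USP1; the region reached the gene through the merged peaks. The 4 RNA-binding genes all had HDGF regions, beside a block share of 79%, and ZRANB2, the one without a shared INTS11 region, had HDGF folds of 3.55 and 3.72.

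Of 9 genes with expression restricted to other tissues, INTS13 was at 9, INTS11 at 7, HDGF at 5, ZEB1 at 4 and ZNF609 at 2, where the block shares were 100%, 92.6%, 79%, 56.8% and 25.9%. RPE65, the retinal isomerase of the visual cycle, had INTS13 folds of 2.86 and 2.68 and INTS11 folds of 2.62 and 2.45, and no HDGF or ZEB1 peak in any list. The complement genes C8A and C8B had no HDGF region. INSL5, an insulin-like gene of the gut, had HDGF folds of 2.96 and 3.48 and ZEB1 folds of 2.63 and 2.80. BSND, a kidney chloride channel subunit gene, also had regions of 4 proteins.

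The top-ranked gene ends, by the mean percentile of -log10 p in both lists, differed between proteins, with SERBP1 among the first 3 for 3 of them. INTS13 ranked CDCP2 (folds 5.28 and 4.05), CYB5RL and MRPL37 (4.67 and 4.11 at each) highest, all within 100 kb of one another. The facing ends of CYB5RL (54200030) and MRPL37 (54200167) lie within 1 kb of each other, so the same peak can be counted for both genes. INTS11 ranked CYB5RL (3.58 and 3.25), SERBP1 (3.17 and 3.54) and SLC35D1 (3.38 and 3.03) highest. HDGF ranked SERBP1 (5.92 and 5.57), PARS2 (4.54 and 6.27) and RAVER2 (4.54 and 5.81) highest. ZEB1 ranked SERBP1 (3.29 and 3.44), FOXD3 and FAM151A (3.07 and 3.31) highest. ZNF609 ranked EFCAB7 (3.17 and 3.50), UBE2U (2.70 and 3.36) and CACHD1 (2.81 and 3.09) highest, and at EFCAB7 neither ZEB1 list had a peak.

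Among regions, the first-ranked INTS13 region was chr1:54108086-54132413, of 24.3 kb overlapping TCEANC2, and the second was the widest region of the block, chr1:54233215-54316345, 83.1 kb inside SSBP3. HDGF ranked chr1:67710419-67715115 inside GNG12 first (folds 5.92 and 6.04), which held INTS13 and INTS11 as well. Its second was chr1:67413016-67429847, which spans most of SERBP1 (chr1:67407810-67430402) and ends 555 bp from the gene's upper end; since SERBP1 lies on the minus strand, that end is its start. A ZEB1 region, chr1:67429123-67430361, lay 41 bp from the same end (folds 3.29 and 3.44). The first-ranked ZEB1 region, chr1:54496232-54500188, lay 48.0 kb from the nearest coding gene, ACOT11, and the first-ranked ZNF609 region, chr1:61034827-61037131, 40.1 kb from NFIA. The first-ranked INTS11 region, chr1:54510787-54520722, also lay outside coding genes, 27.5 kb from ACOT11.

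Promoter letters differed little between the block and the rest of the genome. RefSeq gave 101 promoters for 69 coding genes of the block. An E-box (CACCTG or CAGGTG, both strands) was found in 18.8% of them, against 17.1% of 22132 promoters in all, and a GC box (GGGCGG or CCGCCC, both strands) in 56.4%, against 53.7%. Matches of the 2 motifs overlapped in 50 of the 22132 promoters. ZEB1 regions lay over 12 block promoters, of which 3 (25.0%) held an E-box, against 16 of the other 89 (18%). The 96 block promoters under INTS13 regions had a median GC content of 62% and a median of 17 CpGs. The 5 outside them had 38.0% and 1 CpG, but they belong to only 3 genes, and several are alternative starts of PDE4B. Among these 5, an NFIA promoter went the other way, with 77.2% GC and 38 CpGs. Over all promoters the contrast was smaller, with medians of 64.4% and 19 CpGs under INTS13 regions, against 58% and 12 CpGs outside them. A match describes these letters in this window and does not show a site.

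At non-coding genes of the block, INTS13 and INTS11 were frequent and HDGF less so. Of 109 long non-coding RNA genes, INTS13 was at an end of 100, INTS11 of 98, HDGF of 58, ZEB1 of 33 and ZNF609 of 22, or 91.7%, 89.9%, 53.2%, 30.3% and 20.2%, against 42.9%, 11.4%, 10.1%, 3.04% and 1.99% of all 18177 such genes. Of 13 microRNA genes of the block, INTS13 was at 12, INTS11 at 11, HDGF at 4, ZEB1 at 4 and ZNF609 at 1, against 43.6%, 10.8%, 15.6%, 2.51% and 1.1% of all 1911 such genes. Compared with the coding genes, where HDGF was at 79%, the HDGF share at long non-coding RNA genes was lower, while that of INTS13 and INTS11 was near the coding share; the difference was not tested. Of 70 pseudogenes INTS13 was at 61, INTS11 at 60, HDGF at 26, ZEB1 at 21 and ZNF609 at 13, against 28.4%, 7.63%, 4.43%, 2.16% and 1.5% of all 15212 such genes. Neither of the 2 small nucleolar RNA genes of the block had a region of any protein, against 31.9%, 11.3%, 19.1%, 3.01% and 1.59% of all 1196 such genes. Of the 2 small nuclear RNA genes INTS13 was at 1, INTS11 at 2, HDGF at 1, and ZEB1 and ZNF609 at 0, against 29.9%, 7.14%, 3.9%, 0.649% and 1.3% of all 154 such genes.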

How the data were processed

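ChIP-seq peak lists of 10 HEK293T libraries were analysed, grouped by the antibody target in the sample titles. Per the submitters' processing notes the reads went through FastQC, Trimmomatic, Bowtie, Picard and MACS2; their versions, the control and the thresholds, like the build, were not stated in any source used here, and GRCh38 was inferred from the names of alternate contigs. Peaks had been called per library. The authors deposited for each peak a fold (a linear ratio of summit to background), a p-value and a q-value on a -log10 scale, and a score that is 10 times the -log10 q. Since backgrounds differ, a fold was set against other lists as a rank. Read depth is unknown, so no counting error is given.

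Peaks on the autosomes and X were analysed with Python 3.11.15, pandas 2.3.3, numpy 2.4.6 and scipy 1.17.1; the code was tested on simulated data. Overlap meant 1 bp or more. Gene positions, promoters and strands are from RefSeq (GRCh38); its gene table gives no strand, so both ends of a gene were used. The 10 libraries were divided into 5 pairs in all 945 ways for the permutation tests, of which that of the density ratio is not reported as a result, since the block was chosen on density; 2 libraries against 2 would be too few for a test of any protein pair. Named genes were those of 7 lists, some members of which are not reported here, the 3 highest-ranked genes and regions of each protein, and the genes nearest the block's limits. The block, its members and the lists were chosen with earlier results of these data known. Flanks, thresholds, windows and left-out libraries were varied; inputs were not analysed here.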

Additional observations from a re-analysis of the deposited data

Results flagged for a closer look

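The rank of block peaks by fold within their own lists differed between proteins beyond the spread of replicates, by an excess of 7.84 percentile points (exact one-sided permutation test over pairings of the 10 libraries, p = 0.00529), with medians between 36.2 for a ZNF609 list and 79.4 for an INTS13 list. With peaks of -log10 q of 5 or more the excess was 0.630 and the exact permutation p was 0.0646, which did not pass 0.05. The rank also moved with list length, whose part in the difference was not tested.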

How the results depend on the processing

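Every block density ratio stayed above 1 under all alternatives. In the order INTS13, INTS11, HDGF, ZEB1 and ZNF609, it was 2.74, 8.33, 5.41, 12.5 and 13.4 against the rest of the genome, 4.83, 9.99, 7.03, 30.3 and 9.18 with peaks of -log10 q of 5 or more, 9.57, 10.5, 6.09, 11 and 9.13 with the top 10000 peaks, and 2.56, 5.56, 4.08, 7.33 and 7.19 by bases covered. The ZEB1 value of 30.3 had an SD of 21.5 and rested on few flank peaks. At this threshold ZEB1 replicate 1 had 129 peaks in the block, 1 upstream and 18 downstream, and replicate 2 had 41, 0 and 2. With 10-Mb flanks it was 1.61 for INTS13, 4.50 for ZEB1 and 4.43 for ZNF609. Chosen after seeing the data, the upstream flank alone gave ratios of 13.4 (INTS11), 3.66 (HDGF), 38.9 (ZEB1) and 66.2 (ZNF609), and the downstream flank alone 2.10, 2.63, 3.34 and 3.38. The order of proteins depended on these settings. With -log10 q of 5 or more, reproducible regions fell to 1277, 365, 92, 1 and 0, and gene-end counts to 27 (INTS11), 15 (HDGF) and 0 (ZEB1, ZNF609), since few peaks remained. A 500-bp window left 30 genes for ZEB1. With 1 list in place of 2, regions ranged over 5595 to 6627, 6415 to 6551, 3643 to 4583, 3319 to 3445 and 1852 to 3598, and ZNF609 genes over 41 to 51, by construction. The fold rank excess was 0.630 at -log10 q of 5 or more, where the cause was not tested. A planned test of density differences between proteins uses the counts by which the block was chosen and is not read as a result; its log2 excess was 0.749, and 0.387 without INTS13. In all, 63 of the alternative values stayed close, 52 moved, 2 no longer passed 0.05 and 0 reversed. Deviations of libraries with the same replicate number correlated above 0.1 in 2 of 10 protein pairs (range -0.466 to 0.209). That cutoff counts positive values only and misses the -0.466 of INTS13 with INTS11. It does not settle whether replicate numbers pair the libraries. With the numbers as a replicate block, the excesses in fold rank (7.84), Jaccard index (0.0855), gene proximity (0.379) and start-site cover (0.546) had exact permutation p of 0.025, 0.0167, 0.0167 and 0.05. Unknown read depth limits what absence of a ZEB1 or ZNF609 peak shows.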
